A study of Mus musculus with 8 samples.

Results

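The transcripts of 10 transcription factors that are known from blood vessel endothelium were followed in sorted biliary cells of the mouse liver: the ETS factors Erg, Fli1 and Ets1, the SOX factors Sox17, Sox18 and Sox7, and Gata4, Klf2, Tal1 and Mecom. They were chosen by symbol, with earlier results of these data known, and are 10 of the 46603 genes of the count table. The data are 8 RNA-seq libraries, a pair of EGFP-positive and EGFP-negative sorted cells from each of the 4 mice JV602, JV621, JV624 and JV6314. All mice were heterozygous for R26rtTA and for H2B-EGFP, so the controls carried the same transgenes. The rtTA activator is driven from the Rosa26 locus, which is active in most cell types, and switches on a fusion of histone 2B with EGFP when doxycycline is given. Doxycycline was given from postnatal day 0 to day 5, and the livers were dissociated at 8 weeks of age. Cells that kept the green histone since then, the liver label-retaining cells, are called LLRCs, and the EGFP-negative cells of the same mice are called non-LRC biliary cells. Both were sorted as EpCAM+CD45- cells, a gate that takes biliary epithelium and leaves out leukocytes and that holds no antibody against an endothelial protein. Blood cells of these mice are green without doxycycline too, according to the study. The comparison addresses how the RNA of LLRCs differs from that of their non-retaining neighbours.

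Endothelial cells line the blood vessels, and those of the liver sinusoids are perforated and specialised in taking up material from the blood. Their identity is kept by a small set of transcription factors, in which ETS factors bind the enhancers of most endothelial genes and SOX, GATA, KLF and bHLH factors add arterial, sinusoidal, flow-dependent or blood-forming programmes. None of these factors belongs to endothelium alone: several also act in blood cells, in mesenchyme or in epithelia.

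All 10 genes had a lower mean in LLRCs than in non-LRC biliary cells. All 7 factors that could be tested had a log2 fold change below 0, as did 51.1% of all tested genes. Of the 10, 6 (Sox17, Erg, Fli1, Gata4, Ets1 and Mecom) were lower in each of the 4 mice, which 3.25% of all genes with a count and 5.53% of the tested genes were. Sox17, Gata4, Fli1, Sox18 and Klf2 had log2 fold changes of LLRC over non-LRC from -6.18 to -2.32, and of them Sox17, Gata4, Fli1 and Klf2 had an unadjusted p below 0.05, which Sox17, Fli1 and Klf2 lost under some alternatives. A log2 fold change below -2 was found in 3.47% of all tested genes, and in 5 of the 7 factors that could be tested. Erg, Tal1 and Mecom reached the count filter's level in too few libraries and were compared by permutation. In a fit without the expression filter, where all 10 could be tested, 7 factors and 6.68% of 27591 genes had an unadjusted p below 0.05. Ets1, at -0.70, was the only factor read in quantity in every LLRC library, and the value of Sox7 turned on a single LLRC library. By edgeR's quasi-likelihood test none of them passed an adjusted p of 0.05, nor did any of the 13605 genes tested (0.0%), while 702 genes (5.16%) had an unadjusted p below 0.05 and 485 of these (3.56%) were lower in LLRCs. The libraries are of bulk RNA, so fewer cells that express a gene and less of its RNA per cell cannot be told apart. Levels are given as normalized CPM, read counts divided by the library size after TMM scaling, and always in the order JV602, JV621, JV624, JV6314.

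**Figure D1:**
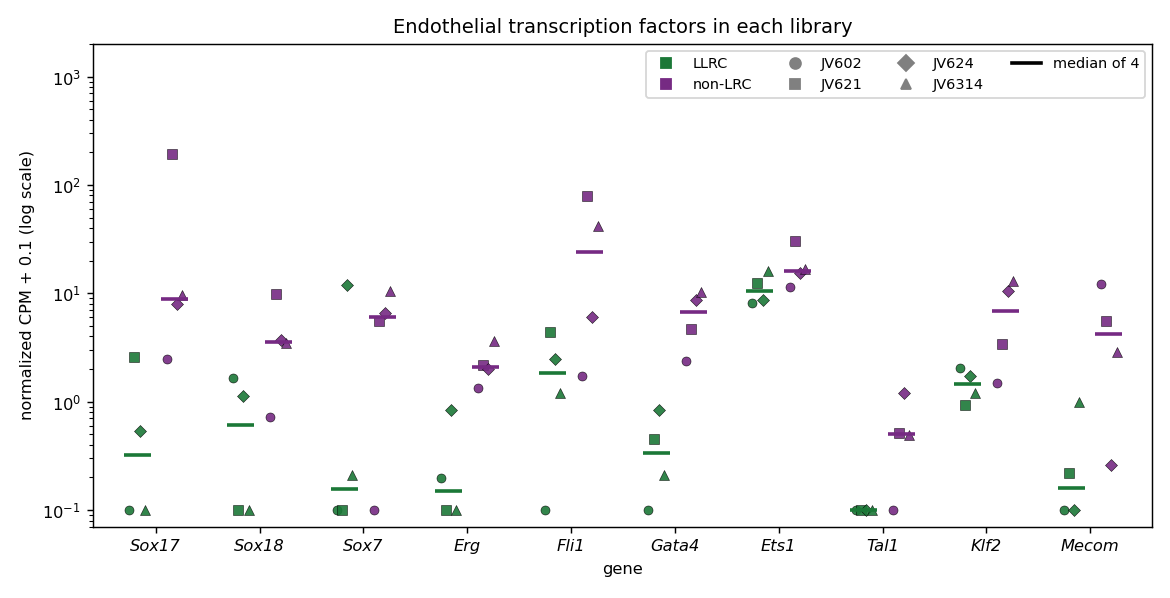
Level of each of the 10 transcription factors in each library, as normalized CPM + 0.1 on a log axis, with LLRC libraries in green, non-LRC libraries in purple, a marker shape for each mouse and a bar at the median of 4. Points at 0.1 are libraries with no read, and only Erg and Gata4 have all 4 green points below all 4 purple points.

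Library totals ranged from 7860021 to 9851819 counts for LLRCs and from 4670132 to 8056103 counts for non-LRC biliary cells. A library with no read of a gene could still hold up to 3 counts, which corresponds to 0.291 to 0.626 CPM, and this floor covers counting error only. Of the markers of the sorted cells, the biliary keratin gene Krt19 was at 116 ± 28.0 CPM (SD, n = 4) in LLRCs and at 134 ± 33.1 CPM in non-LRC biliary cells. Ptprc, which encodes the excluded CD45, had 5, 34, 14 and 59 counts in LLRCs and 0, 0, 0 and 7 in non-LRC biliary cells. Non-LRC libraries stood further apart from each other than LLRC libraries did in the summed level of the 10 factors, which was 32.8, 335, 61.2 and 111 CPM against 11.6, 20.5, 27.2 and 19.4 CPM.

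The ETS factors were compared first. Erg, an ETS factor that keeps endothelial junction and identity genes active, lies on chromosome 16 (95359169 to 95586593, minus strand, GRCm38). It was read at 0.0969, 0, 0.735 and 0 CPM in LLRCs and at 1.25, 2.09, 1.89 and 3.55 CPM in non-LRC biliary cells, from 6 and 50 counts in all. All LLRC libraries were below all non-LRC libraries, and the order held within each mouse. Erg reached the count filter's level in too few libraries to enter the fit across genes. An exact two-sided permutation test over 4 against 4 unpaired libraries gave p = 0.0286, the smallest p it can give. That test ignores the pairing by mouse: of the 16 ways to swap the libraries within mice, 2 (12.5%) gave a difference as large, the smallest share possible, so that no exact test within 4 mice can reach 0.05. Gata4 was the only other factor without overlap between the groups, so that 2 of the 10 showed it, against 316 of the 27591 genes with a count (1.15%) and 260 of the 13605 tested genes (1.91%).

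Fli1, the closest relative of Erg, acts in endothelium and in megakaryocytes and other blood cells (chromosome 9, 32422204 to 32542861, minus strand). Its level was 0, 4.26, 2.35 and 1.11 CPM in LLRCs against 1.63, 79.4, 6.00 and 42.0 CPM in non-LRC biliary cells. Within every mouse the LLRC library was the lower, but the non-LRC value of JV602 lay below the LLRC values of JV621 and JV624. The log2 fold change was -4.06 (standard error 1.41, adjusted p = 0.753, edgeR's quasi-likelihood test). JV621 alone held most of the reads, and without its non-LRC library the non-LRC mean was 16.6 CPM in place of 32.3 CPM and the log2 fold change -3.08. The unadjusted p was no longer below 0.05 in limma voom, without the LLRC library of JV6314 or without both libraries of that mouse, and limma voom gave a log2 fold change of -2.29.

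Ets1, the founding ETS factor, is active in endothelium and lymphocytes and also in many epithelia (chromosome 9, 32636221 to 32757820, plus strand). It was the one gene of the 10 with 58 or more counts in every library. The level was 8.05, 12.4, 8.53 and 16.1 CPM in the LLRC libraries and 11.3, 30.1, 15.3 and 16.6 CPM in the non-LRC libraries. The groups overlapped widely, although the LLRC library was lower in 4 of 4 mice, by as little as 0.04 on the log2 scale in JV6314. A log2 fold change of -0.70 (standard error 0.44) had an adjusted p of 0.9999 in the same test. It was -0.34 without the non-LRC library of JV621, which held the highest level.

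Sox17, Sox18 and Sox7 form the F group of SOX factors, which act together in vessel growth and in arterial and lymphatic fate. Sox17 (chromosome 1, 4490931 to 4497354, minus strand) drives arterial identity and is also a factor of early endoderm and the gallbladder primordium. It had 0, 21, 3 and 0 counts in LLRCs and 19, 931, 50 and 48 counts in non-LRC biliary cells, which are 0, 2.48, 0.441 and 0 CPM against 2.38, 194, 7.89 and 9.47 CPM. The LLRC library was lower in each of the 4 mice, and the overlap between groups came from a single pair of values, the LLRC library of JV621 and the non-LRC library of JV602.

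The log2 fold change of Sox17 was -6.18 (standard error 1.87, adjusted p = 0.556, edgeR's quasi-likelihood test), the lowest of the 7 factors tested. Its size depended on the non-LRC library of JV621 and on the method. Without that library the non-LRC mean fell from 53.5 to 6.58 CPM and the log2 fold change was -3.14 (adjusted p = 0.566 in that fit), with an unadjusted p no longer below 0.05. Without the LLRC library of JV621 the log2 fold change was -8.54, and without both libraries of this mouse -5.49. In limma voom, with all 8 libraries, it was -4.03 (standard error 1.43). With the mouse as a term, a fit in which 4.18% of genes had an unadjusted p below 0.05, the log2 fold change was -5.99 and the standard error fell from 1.87 to 0.87. The exons of Sox17 share 16.8% of their bases with Gm37587, a gene on the opposite strand, and the counting took no account of strand, so reads in that stretch cannot be assigned to either.

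Sox18 (chromosome 2, 181669836 to 181671640, minus strand) is the factor that starts lymphatic endothelial fate in the embryo. It was read at 1.55, 0, 1.03 and 0 CPM in LLRCs and at 0.626, 9.81, 3.63 and 3.35 CPM in non-LRC biliary cells. JV602 ran the other way, with 16 counts in its LLRC library and 5 in its non-LRC library, and the other 3 mice were lower in LLRCs. The log2 fold change of -2.71 (standard error 1.32) had an adjusted p of 0.9999. It was -1.92 without the non-LRC library of JV621, where the non-LRC mean fell from 4.36 to 2.54 CPM, -3.65 without the LLRC library of JV602, where the LLRC mean fell from 0.645 to 0.343 CPM, and -1.52 without both libraries of JV621.

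Sox7 (chromosome 14, 63943673 to 63950732, plus strand) acts in vessel sprouting and early blood formation. Its LLRC libraries held 0, 0, 80 and 1 counts, and its non-LRC libraries 0, 26, 41 and 53 counts. JV624 thus had more Sox7 in LLRCs, 11.8 CPM, than in non-LRC biliary cells, 6.47 CPM, while JV621 and JV6314 had 5.43 and 10.5 CPM in non-LRC biliary cells and at most 0.111 CPM in LLRCs. The log2 fold change was -0.92 (standard error 1.85, adjusted p = 0.9999). That single library decided the value: without the LLRC library of JV624 the LLRC mean was 0.0370 CPM in place of 2.97 CPM and the log2 fold change -6.70 (adjusted p = 0.703). With the mouse as a term it was -4.04 (adjusted p = 1.0).

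**Figure D2:**
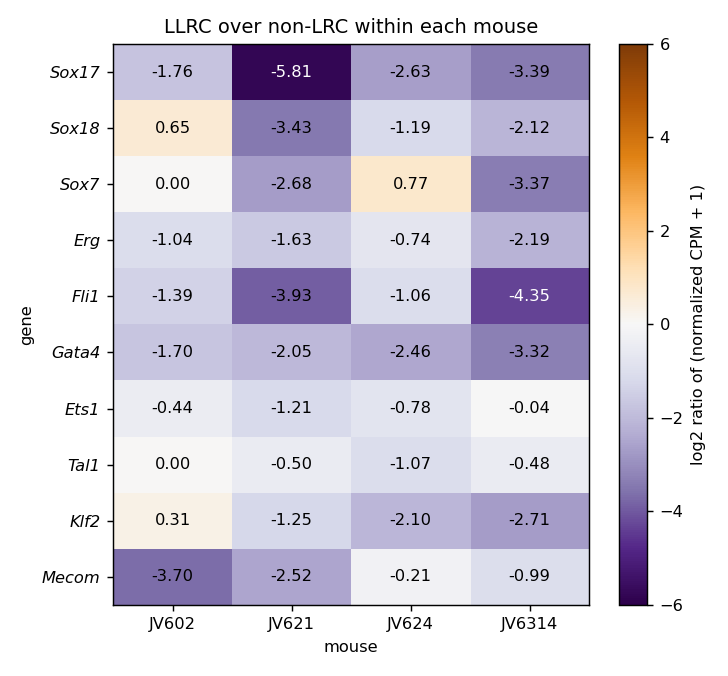
Log2 ratio of LLRC over non-LRC within each mouse, computed on normalized CPM + 1, for each of the 10 factors (rows) and 4 mice (columns), with purple for lower and orange for higher in LLRCs. Sox17, Erg, Fli1, Gata4, Ets1 and Mecom are below 0 in all 4 mice, the values above 0 are Sox18 and Klf2 in JV602 and Sox7 in JV624, and Sox7 and Tal1 are at 0.00 in JV602, where neither library had a read.

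Gata4 is the factor that keeps sinusoidal endothelium from turning into continuous endothelium, and it is also expressed in stellate cells and in heart and gut (chromosome 14, 63198922 to 63271692, minus strand). It was at 0, 0.355, 0.735 and 0.111 CPM in LLRCs and at 2.25, 4.59, 8.52 and 10.1 CPM in non-LRC biliary cells. No LLRC library reached the lowest non-LRC library, and the ratio within mice lay between -1.70 and -3.32 on the log2 scale. This was the narrowest range among the 5 factors with a log2 fold change below -2. With 0, 3, 5 and 1 LLRC counts, these ratios depend on the 1 CPM added to each level. With 0.25 CPM added, their mean was -3.58 in place of -2.38. The log2 fold change was -4.39 (standard error 1.04, adjusted p = 0.276). Of the 7 factors tested there, Gata4 alone passed an adjusted p of 0.05 under other tests, although Sox17 has no p in DESeq2. The adjusted p was 0.00344 with edgeR's exact test, which called 159 genes (1.17%), 0.000596 with DESeq2, which called 221 (1.65%), and 0.0244 with the newer form of the quasi-likelihood dispersion, which called 73 (0.537%).

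The mesenchymal markers, 15 genes of fibroblasts, stellate cells and mesothelium, summed to 306 to 935 CPM in LLRCs and to 736, 775, 3370 and 2580 CPM in non-LRC biliary cells. Their 2 highest non-LRC libraries, JV624 and JV6314, were also those with the most Gata4. Dcn was the largest part of the non-LRC sums, with 3981, 2327, 14640 and 9198 counts. Lrat had 161, 252, 251 and 376 counts in the same libraries. The part of these cell types in the Gata4 values was not tested. Of 9 mesenchymal markers tested, 8 had a log2 fold change below 0, beside 51.1% of all tested genes, and the median was -1.90. Of the 8, 3 had an unadjusted p below 0.05, beside 3.56% of all genes lower at this threshold. Lrat, a gene of stellate cells, was the member of that list with the lowest p and was at 5.92 ± 2.12 CPM in LLRCs against 46.6 ± 22.7 CPM in non-LRC biliary cells (SD, n = 4; log2 fold change -2.98, adjusted p = 0.104, edgeR's quasi-likelihood test). Ngfr was at 0 in all LLRC libraries, and Reln, a secreted protein gene of stellate cells, had the highest log2 fold change of the list, 0.32.

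Klf2, a zinc finger factor that endothelium switches on under laminar blood flow, is also active in resting lymphocytes (chromosome 8, 72319033 to 72321656, plus strand). LLRC libraries held 1.94, 0.828, 1.62 and 1.11 CPM, and non-LRC libraries 1.38, 3.34, 10.3 and 12.8 CPM. In JV602 the LLRC library was the higher, with 20 counts against 11, and in the other 3 mice the non-LRC library was. The log2 fold change was -2.32 (standard error 0.77, adjusted p = 0.688). Its unadjusted p was not below 0.05 with the mouse as a term, in limma voom (log2 fold change -1.70), without mouse JV624 or without mouse JV6314. Beside Ets1, Klf2 was the only factor with reads in all LLRC libraries, at 1.37 ± 0.499 CPM (SD, n = 4).

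Tal1 is a bHLH factor of blood stem cells, red cells, megakaryocytes and endothelium (chromosome 4, 115056426 to 115071755, plus strand). It was not read in any LLRC library and had 0, 2, 7 and 2 counts in non-LRC biliary cells, 11 in all. Over the pooled groups, the non-LRC level was 5.24-fold a floor of 3 counts over the LLRC group, and 2.58-fold without the non-LRC library of JV624. The floor covers the LLRC side only. Counting error of the 11 non-LRC counts and the spread between mice are not in these ratios, so they are no lower bounds. The exact two-sided permutation test over libraries gave p = 0.143, and 4 of the 16 swaps within mice gave a difference as large. The erythroid and megakaryocyte markers summed to 1.13, 2.30, 459 and 21.3 CPM in the non-LRC libraries and to 4.27, 5.68, 116 and 5.22 CPM in LLRCs. Among non-LRC libraries, JV624 had the most Tal1 and the highest sum of these markers, and that of JV621 had 2 Tal1 counts at a sum of 2.30 CPM. The LLRC library of JV624, with 116 CPM, had no Tal1 read. The part of red cell RNA in the Tal1 reads was not tested.

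Mecom encodes a zinc finger factor of the PRDM family that is known from blood stem cells and arterial endothelium (chromosome 3, 29951296 to 30548008, minus strand). It had 0, 1, 0 and 8 counts in LLRCs and 96, 26, 1 and 14 counts in non-LRC biliary cells. The LLRC library was lower in each of the 4 mice, but in JV624 by 0 against 1 count. Mecom was not tested across genes, and the exact two-sided permutation test gave p = 0.0571 over libraries, and 2 of the 16 swaps within mice gave a difference as large. It was also the only factor with its highest level in the non-LRC library of JV602, at 12.0 CPM, and without that library the non-LRC mean was 2.78 CPM in place of 5.09 CPM.

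RefSeq start windows of the mouse (GRCm38.p6), the 250 bases before an annotated start, were at hand for 4 of the 10 genes: Erg (3 windows), Tal1 (2), Klf2 (1) and Mecom (2). They were searched on both strands for AGGAAG, which ETS factors prefer, for AGATAA, which GATA factors bind, for the KLF motif CACCC, for the SOX motif ACAAT and for the palindromic MEF2 motif, whose fixed letters are CTA followed after 4 bases by TAG. These letters occur in 29.5%, 9.99%, 52.0%, 27.7% and 3.2% of all 32851 windows of this length. Of each gene with a match, the window that holds the most of these motifs is shown. Capitals mark the matches, and none of them overlap.
Erg, most downstream of its 3 starts, chr16:95459349-95459598, minus strand: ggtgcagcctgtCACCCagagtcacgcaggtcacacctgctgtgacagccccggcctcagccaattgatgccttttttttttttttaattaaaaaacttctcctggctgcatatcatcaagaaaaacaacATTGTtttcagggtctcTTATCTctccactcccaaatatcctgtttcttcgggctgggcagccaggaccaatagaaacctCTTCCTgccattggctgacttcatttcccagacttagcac
Tal1, first start, chr4:115056176-115056425, plus strand: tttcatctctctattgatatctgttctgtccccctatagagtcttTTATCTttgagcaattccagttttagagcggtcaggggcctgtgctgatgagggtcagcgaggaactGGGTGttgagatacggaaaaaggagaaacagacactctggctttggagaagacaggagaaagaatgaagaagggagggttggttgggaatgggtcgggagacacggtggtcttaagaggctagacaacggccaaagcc
Klf2, chr8:72318812-72319061, plus strand: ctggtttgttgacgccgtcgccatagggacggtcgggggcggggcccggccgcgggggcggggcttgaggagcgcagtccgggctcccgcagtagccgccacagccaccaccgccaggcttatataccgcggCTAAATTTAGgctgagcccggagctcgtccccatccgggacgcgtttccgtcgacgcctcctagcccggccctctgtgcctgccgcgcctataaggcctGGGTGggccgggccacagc

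In this Erg window, which lies inside the gene, the ETS letters lie 40 to 35 bases before the start, the GATA letters 103 to 98, the SOX letters 120 to 116 and the KLF letters 238 to 234. Tal1 has the GATA letters at 205 to 200 and the KLF letters at 138 to 134 bases before its first start. In Klf2 the MEF2 letters lie at 118 to 109 and the KLF letters at 19 to 15 bases before the RefSeq start. The last 29 bases of this window, which hold the KLF letters, lie inside the gene as the annotation of the counts places it, from 72319033. The first Erg window held the KLF letters alone, and the second Erg window, the second Tal1 window and both Mecom windows held none of the 5 motifs. A match is a match of letters only, and the gene counts do not show which start a transcript came from. Erg, Tal1 and Klf2 had 6, 0 and 48 counts over the LLRC libraries and 50, 11 and 157 over the non-LRC libraries.

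Compared per kilobase of exon, the factors differed in level as well as in their ratio. The median over non-LRC libraries was 6.89 normalized CPM per kilobase for Fli1 and 3.68 for Klf2, followed by 2.16 for Sox18, 1.88 for Ets1, 1.82 for Sox17, 1.80 for Sox7 and 1.68 for Gata4. Erg, Mecom and Tal1 were the lowest, with 0.574, 0.330 and 0.0927. The middle of this order, from Sox18 to Gata4, differed by far less than each gene varied between libraries. By the mean over non-LRC libraries, Sox17 at 11.2 and Fli1 at 9.25 lay above 4.65, the median of such means over the tested genes. All other factors lay under it, and the mean of Sox17 rests largely on JV621. In LLRCs the order was led by Ets1 with a median of 1.24, then Klf2 with 0.739, Fli1 with 0.497 and Sox18 with 0.318, and the other 6 lay at or under 0.0597.

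The make-up of the 10 genes' reads therefore differed between the populations. Ets1 made up 69.2%, 60.7%, 31.4% and 82.9% of their summed CPM in LLRCs against 34.4%, 8.98%, 25.0% and 14.9% in non-LRC biliary cells, and the share was higher in LLRCs in each mouse. A different factor led in each non-LRC library: Mecom in JV602 with 36.6%, Sox17 in JV621 with 58.0%, Ets1 in JV624 with 25.0% and Fli1 in JV6314 with 37.7%. The exception among LLRC libraries was JV624, where Sox7 held 43.2%. These shares are a description and were not tested.

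**Figure D3:**
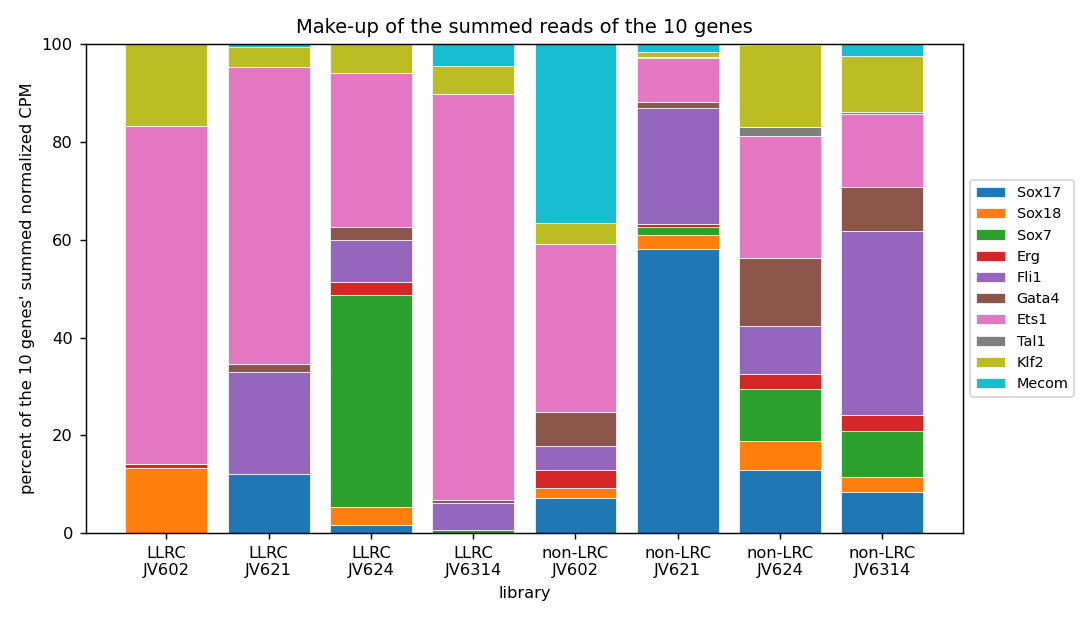
Share of each of the 10 factors in their summed normalized CPM, in percent, for each of the 8 libraries. Ets1 (pink) is the largest part in 3 of the 4 LLRC libraries, Sox7 (green) leads in the LLRC library of JV624, and the non-LRC libraries are led by Mecom, Sox17, Ets1 and Fli1 in turn.

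The non-LRC libraries could be ordered by mouse. For 9 of the 10 factors the lowest non-LRC value was that of JV602, with Sox7 and Tal1 at 0 there, and Mecom alone was highest in it. JV621 was highest for Sox17, Sox18, Fli1 and Ets1, JV6314 for Sox7, Erg, Gata4 and Klf2, and JV624 for Tal1. The spread over non-LRC libraries was 81.7-fold for Sox17, from 2.38 to 194 CPM, and 48.7-fold for Fli1, against 2.84-fold for Erg and 2.67-fold for Ets1. No such ratio is given for Sox7 and Tal1, with libraries at 0, or for Mecom, whose lowest value was 1 count. Without the non-LRC library of JV602, the number of factors with no overlap between groups was 7 in place of 2, namely Sox17, Sox18, Erg, Fli1, Gata4, Tal1 and Klf2, beside 2.48% of all genes with a count. Of the 7 tested factors 5 were among them, beside 4.06% of the tested genes. With any other single library left out, 2 or 3 factors had no overlap, beside 1.38% to 3.04% of all genes with a count.

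General endothelial markers, summed, were ordered by mouse as Sox17, Fli1 and Ets1 were, while all other factors had other orders. The 18 genes of this list, among them the receptors Kdr, Flt1 and Tek, summed to 376, 2200, 772 and 1180 CPM in non-LRC biliary cells and to 57.6, 112, 108 and 84.7 CPM in LLRCs, and none was at 0 in all LLRC libraries. Of 17 that could be tested, 17 were lower in LLRCs, beside 51.1% of all tested genes, and the median log2 fold change was -3.78. Of these, 16 had an unadjusted p below 0.05, beside 3.56% of all genes lower at this threshold. The lowest were Cd93 at -7.19 and Adgrl4 at -5.42, and the highest Ecscr at -0.52. Of these 18 markers, 12 belong to the genes that the study itself selected from these libraries, so they are no independent evidence. The part of endothelial RNA in the values of the 10 factors was not tested.

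The factors were also scaled to that marker sum, as a description. Since the sum is lower in LLRCs, a gene whose level did not change is 6.52, 19.7, 7.17 and 13.9 times higher in LLRCs on this scale. Of all tested genes 92.4% were higher in LLRCs in each of the 4 mice, and 84.6% were higher without overlap between the groups. Ets1 was at 30.0, 13.6, 19.8 and 14.1 CPM for each 1000 CPM of endothelial markers in non-LRC biliary cells and at 140, 111, 79.2 and 190 in LLRCs, without overlap like most genes. Erg was at 3.33, 0.948, 2.45 and 3.01 in non-LRC biliary cells and at 1.68, 0, 6.83 and 0 in LLRCs, from at most 5 counts. Klf2 was at 33.7, 7.41, 15.0 and 13.1 in LLRCs against 3.67, 1.52, 13.3 and 10.9, and the groups overlapped. Fli1 went both ways, with 0, 38.1, 21.9 and 13.1 in LLRCs against 4.33, 36.0, 7.77 and 35.7. The sum that serves as denominator includes the 12 genes that the study selected for their difference between these libraries. Sox17 stayed lower in LLRCs in each mouse, at 0, 22.2, 4.10 and 0 against 6.33, 88.2, 10.2 and 8.04, with JV621 the highest in both groups. Gata4 was lower in 3 of the 4 mice, at 0, 3.17, 6.83 and 1.31 against 6.00, 2.08, 11.0 and 8.54. Sox18, Sox7 and Mecom went both ways, Mecom with 32.0 in the non-LRC library of JV602 and 0.205 to 2.46 in the other non-LRC libraries.

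Targets of the ETS factors, from the textbook list of vascular receptors and junction genes, were then followed. Of 13 listed, 10 could be tested, and 10 were lower in LLRCs with an unadjusted p below 0.05, and their median log2 fold change was -3.73, beside 3.56% of all genes lower at this threshold and a median of -0.01. Of these 10, 8 were already counted among the general endothelial markers, so the lists are not separate evidence. Tek, the angiopoietin receptor, was at 4.65 ± 1.51 CPM in LLRCs against 60.3 ± 19.8 CPM in non-LRC biliary cells (SD, n = 4; log2 fold change -3.69, adjusted p = 0.0809, edgeR's quasi-likelihood test). Cldn5, a tight junction gene of endothelium, was at 1.05 ± 0.367 and 14.2 ± 6.53 CPM (log2 fold change -3.73), and Cdh5, the endothelial cadherin, at 4.75 ± 3.37 and 45.6 ± 38.5 CPM (log2 fold change -3.26). Apln was at 0 in all LLRC libraries, and 7 of the 13 were among the genes that the study selected from these data.

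Of 5 targets of Klf2, 4 were tested and were all lower in LLRCs, 2 of them with an unadjusted p below 0.05, beside 3.56% of all genes, and 1 of the 5 was selected by the study from these libraries. Thbd, which encodes the anticoagulant thrombomodulin, was at 21.7 ± 8.15 and 134 ± 85.1 CPM (SD, n = 4; log2 fold change -2.63, adjusted p = 0.216, edgeR's quasi-likelihood test). S1pr1, a receptor for sphingosine-1-phosphate, had a log2 fold change of -4.17, with 1174 of its non-LRC counts in JV621. Cyp1b1 and Edn1 had log2 fold changes of -3.29 and -1.72, with an adjusted p of 0.9999 and 0.962. The list was not split by whether Klf2 raises or lowers a gene, so a shared direction does not bear on Klf2 itself.

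Genes of particular vessel types were counted in the same way. Of 11 tested sinusoidal genes, those of the vessels that Gata4 keeps in shape, 11 were lower with an unadjusted p below 0.05 and a median of -3.25, for example the mannose receptor gene Mrc1 at -5.28 and the Wnt ligand gene Wnt2 at -4.18. Of 7 tested arterial and continuous endothelial genes, 5 were lower at that threshold with a median of -3.90, led by the connexin gene Gja4 at -7.87, and Efnb2 was the highest at 1.34 (adjusted p = 0.9999). Among 3 tested lymphatic genes only the receptor gene Flt4 had an unadjusted p below 0.05 (log2 fold change -1.48), and Prox1, a target of Sox18 in lymphatics that hepatocytes also express, was at 0.32 (adjusted p = 0.9999). Over all 13605 genes 3.56% were lower at this threshold, and of the listed genes the study selected 7 of 13 sinusoidal and 3 of 12 arterial ones from these libraries.

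**Figure D4:**
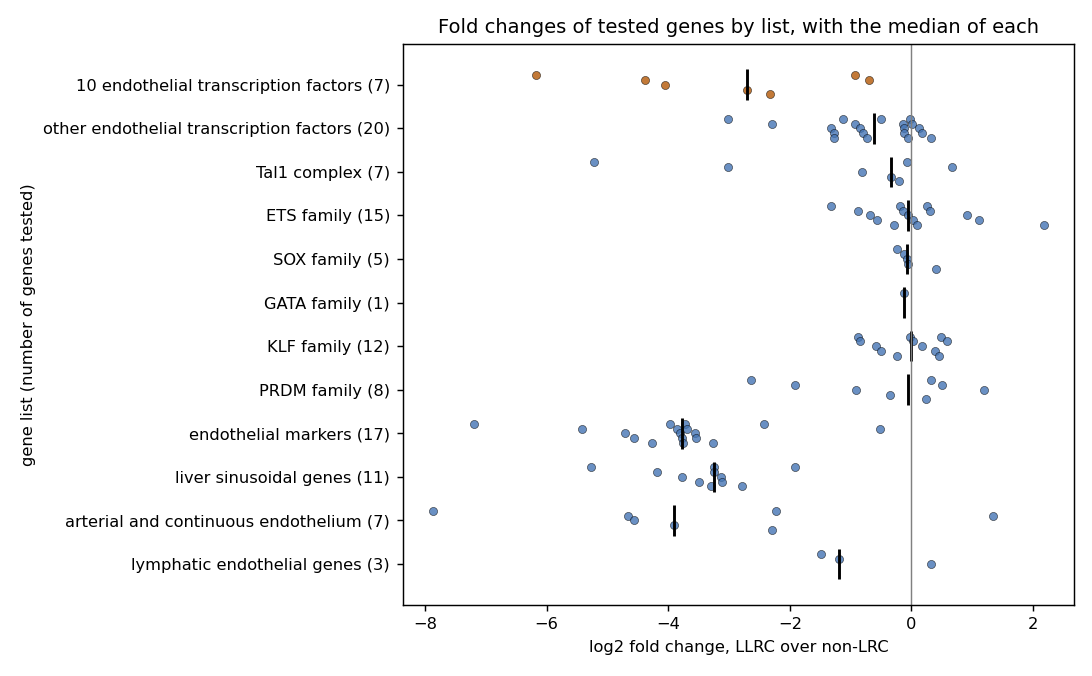
Log2 fold change of LLRC over non-LRC for each tested gene of each list, with the number of genes tested in brackets and a black bar at the median. The median of the factors (orange, 7 of 10 tested) is -2.71, those of their ETS, SOX, GATA, KLF and PRDM relatives are within 0.12 of 0, and that of the endothelial markers is -3.78, while single values overlap between the lists.

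Other members of the ETS, SOX, GATA, KLF and PRDM families had medians close to 0. Of 15 other ETS genes tested, 0 had an unadjusted p below 0.05, at a median of -0.05, from Elk3 at -1.32 to Elf4 at 2.18. Of 5 other SOX genes, 0 reached it, with a median of -0.08, and Sox9, the biliary SOX factor, was at 368 ± 152 CPM in LLRCs against 278 ± 108 CPM in non-LRC biliary cells (SD, n = 4; log2 fold change 0.40, adjusted p = 0.9999, edgeR's quasi-likelihood test). Gata6, the one other GATA gene tested, was at -0.12, and 12 other KLF genes had a median of 0.0 with 0 at the threshold. Of 8 PRDM genes, Prdm15 was lower (-1.91) and Prdm16, the nearest relative of Mecom, higher (1.20) at an unadjusted p below 0.05 (adjusted p = 0.79 and 0.688). Whether the 10 factors differ from their relatives was not tested.

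Other transcription factors known from endothelium were counted next. Of 32 listed, 20 were tested, 6 of which (Gata6, Etv6, Elk3, Ets2, Klf4 and Klf6) are also in the family lists, 16 had a log2 fold change below 0 (51.1% of all tested genes did) and 2 an unadjusted p below 0.05, with a median of -0.61. Whether this list differs from the others was not tested. Maf, a factor of sinusoidal endothelium, was at 22.5 ± 7.60 CPM in LLRCs against 54.2 ± 16.7 CPM in non-LRC biliary cells without overlap (SD, n = 4; log2 fold change -1.27, adjusted p = 0.536, edgeR's quasi-likelihood test), and Mef2a was at -1.12 (adjusted p = 0.952). Prox1 and Klf6 were the highest of this list, at 0.32 and 0.17. Of 7 tested partners of Tal1, 6 had a log2 fold change below 0, 1 with an unadjusted p below 0.05, and the median was -0.33, with the bHLH gene Tcf3 the highest at 0.67. The adaptor gene Ldb2 had a log2 fold change of -5.23 (adjusted p = 0.392), with 3, 11, 6 and 11 counts in LLRCs and 4, 527, 41 and 118 in non-LRC biliary cells, and Lmo2 was at -3.02 (adjusted p = 0.9999). Ldb2 is among the genes that the study selected from these libraries. Gata1, Gata2 and Lyl1, which also belong to the complex, had no read in any LLRC library, and Gata1 and Lyl1 had none in non-LRC biliary cells either.

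Markers of further cell types were read beside the factors. Leukocyte markers, which matter because Fli1, Ets1, Tal1 and Klf2 are also factors of blood cells, summed to 16.5 to 35.2 CPM in LLRCs and to 35.2, 26.9, 52.4 and 53.3 CPM in non-LRC biliary cells, and 7 of 15, among them the macrophage genes Adgre1, C1qa, C1qb and C1qc, were at 0 in all LLRC libraries. Of 4 tested, 1 was lower and 1 higher at an unadjusted p below 0.05. Fcer1g, of myeloid cells, had a log2 fold change of -3.89, and Ptprc one of 3.27 (adjusted p = 0.957, edgeR's quasi-likelihood test). Csf1r and Itgam, also of myeloid cells, were at 17.3 and 3.17 CPM in LLRCs and at 19.3 and 4.06 CPM in the other libraries. Hepatocyte markers summed to 3670 to 4520 CPM and to 4040, 2630, 7930 and 7150 CPM. Of 14 tested, 7 were lower with an unadjusted p below 0.05, beside 3.56% of all genes, and their median log2 fold change was -1.57, from Cyp2e1 at -2.69 and Apoa1 at -2.66 to Ahsg at 0.46 and Apob at 0.74. Cholangiocyte markers summed to 117000, 151000, 224000 and 203000 CPM in LLRCs against 146000, 165000, 67900 and 106000 CPM. On this sum the non-LRC libraries of JV624 and JV6314, the highest in Gata4 and Klf2, were the lowest. Epcam, with means of 583 and 551 CPM, and Krt19 are small parts of the sum. In non-LRC libraries Krt19 had 979, 453, 1092 and 738 counts and Sox9 2011, 1534, 2520 and 724, both with the most in JV624. Epcam had 4219, 3666, 2740 and 2421 counts there. Of 19 cholangiocyte markers tested, 16 had a log2 fold change above 0, 1 with an unadjusted p below 0.05, at a median of 0.28. Pancreatic acinar markers were at 1190 CPM in the non-LRC library of JV6314 and at most 2.38 CPM in every other library. The part of these cell types in the values of the 10 factors was not tested.

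Across the 8 libraries, the mean standardized log2 profile of the 10 factors was most like those of Ehd3 and Stab1, both genes of sinusoidal endothelium, Ackr1, a chemokine-binding receptor of venules, Egfl7, a secreted endothelial factor, and Gja4, each with a Pearson r of 0.98. The libraries share their group, so r reflects the difference between groups as well as the variation within them, and no p is given. Each gene was also picked for the highest r among all tested genes over only 8 libraries. Such a search can give high values by itself. Taken singly, the nearest gene was Mgp for Gata4 (r = 0.98) and Cxcl12 for Klf2 (r = 0.97), with log2 fold changes of -3.25 and -2.50. For Mecom it was Heph (r = 0.95) and for Sox17 Tmem106a (r = 0.97), at -2.43 and -0.48. For Sox18, Sox7, Erg, Fli1, Ets1 and Tal1 it was Tnfrsf1a, Knop1, Sec14l1, Dennd5a, Pxdn and Wdr18, with r from 0.96 to 0.98. The log2 fold changes of these genes were -1.08, -0.20, -0.84, -0.69, -1.43 and -0.50.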

How the data were processed

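RNA of sorted LLRCs and non-LRC cells from 4 mice was sequenced, with group and mouse taken from the labels. Reads were mapped for the authors by a sequencing service, with an aligner not given in the sources used here, and HTSeq (union mode, exons of Ensembl genes of GRCm38.p4, no strand) gave the counts. The deposited values are raw counts, and the authors' own table of fold changes and p-values was not used. The 10 genes and the gene lists were chosen with earlier results of these data known. Symbols and positions came from GENCODE M21 (46005 of 46603 identifiers).

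Genes passing edgeR's filterByExpr (minimum count 10, 13605 genes) were scaled by TMM and tested with edgeR 4.0.16 in R 4.3.3 (quasi-likelihood, group as only term, Benjamini-Hochberg adjustment), after a check on simulated data. A gene passes this filter through the group in which it is high, so values over the 7 tested factors describe those 7 only. Erg, Tal1 and Mecom did not pass and had an exact two-sided permutation test on normalized CPM (smallest p 0.0286). Ratios within mice are of normalized CPM + 1. Named genes were the factors, the sort markers, the genes nearest in profile and, of each list, the 2 lowest, the 2 highest and up to 6 with an unadjusted p below 0.05. Apln, Ngfr, Gata1, Gata2, Lyl1 and leukocyte genes at 0 were named after their values were seen. Alternatives used DESeq2 1.42.0, limma 3.58.1, other filters and scalings, the mouse as a term and libraries left out. The libraries of a mouse come from 1 animal and are paired. Their deviations from the group means had a Pearson correlation of 0.0961 in JV602, 0.0737 in JV621, 0.00334 in JV624 and 0.171 in JV6314.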

Additional observations from a re-analysis of the deposited data

Results flagged for a closer look

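Among 19 groups of 4 values, 4 held a library far from the other 3, where normally distributed values would give about 1 in 20. The rule was applied to CPM without a log, and low counts are skewed, so that rate need not hold here. Sox17 was at 194 CPM in the non-LRC library of JV621, from 931 counts. Sox7 was at 11.8 CPM in the LLRC library of JV624, from 80 counts. Erg was at 0.735 CPM in the LLRC library of JV624, from 5 counts. Mecom was at 0.888 CPM in the LLRC library of JV6314, from 8 counts.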

How the results depend on the processing

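Under 21 alternatives, 142 of 145 log2 fold changes of single factors kept their direction and their side of the adjusted threshold, none reversed, and the other 3 were Gata4 passing it with the exact test (log2 fold change -4.40), DESeq2 (-4.50) and the newer dispersion (-4.48), under each of which 1 factor was called. Calls over all genes rose from 0 to 11 without an expression filter, 159 with the exact test, 221 with DESeq2 and 73 with the newer dispersion. Sox17 has no p in DESeq2 (log2 fold change -6.32) and is not counted there. Without a filter, when all 10 are fitted, 7 factors had an unadjusted p below 0.05 in place of 4, beside 6.68% of 27591 genes. Leaving out 1 library or 1 mouse gave 0 to 6 genes called, 0 factors called, 2 to 7 of the 7 to 9 factors tested with an unadjusted p below 0.05, beside 3.41% to 8.90% of all genes, and a median of the tested factors' log2 fold changes from -4.16 to -2.81 with 1 library left out and from -4.40 to -2.36 with 1 mouse left out, in place of -2.71. The median was -4.16 without the LLRC library of JV624, where more factors passed the filter and Sox7 fell to -6.70. Without mouse JV6314, 2 factors were left at an unadjusted p below 0.05, beside 3.41% of all genes. Counts of factors without overlap, an alternative chosen after seeing the data, ranged from 2 to 7 with each library left out, beside 1.38% to 3.04% of all genes with a count. They stayed at 2 with library size alone, beside 1.94% of the tested genes. With the mouse as a replicate block, 0 genes and 0 factors were called, so no call changed, and the median was -3.96. In that fit 3 factors had an unadjusted p below 0.05 (Sox17, Fli1 and Gata4), beside 4.18% of all tested genes. Swapping libraries within mice, also chosen after seeing the data, gave a difference as large as that of Erg in 12.5% of arrangements, in place of 2.86% over all libraries. With a pseudocount of 0.25 CPM the mean ratios within mice of all 10 factors were further below 0, from -0.65 for Ets1 to -4.60 for Sox17, and those of Erg, Gata4 and Tal1 (-2.60, -3.58 and -1.31) moved by more than their SD over mice. The causes of these changes were not tested beyond this. Depth limits Erg, Gata4, Tal1 and Mecom, each with under 10 counts over the LLRC libraries.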
